A study of Mus musculus with 12 samples.

Results

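The BH3-only death genes are the members of the BCL2 family whose proteins share with the rest of the family only the BH3 helix. The genes chosen were Bbc3, Bid, Bmf, Bad, Bik, Bcl2l11, Pmaip1 and Hrk. They were picked by symbol, with earlier results of these data known. Of these 8 genes, 7 had a row among the 24770 rows of the expression table, and Bik is not analysed here. RNA was measured in the mouse germ-cell line GC-2, labelled wild type and as type B spermatogonia, in 4 groups of 3 libraries that the series text calls biological replicates. Cells received the solvent DMSO or 1 µM MLN4924 and were then kept for 24 h in normoxia or in hypoxia at 1% O2. The groups are called DMSO normoxia, DMSO hypoxia, MLN4924 normoxia and MLN4924 hypoxia, and all of them are 1 cell line in culture. MLN4924 blocks the NEDD8-activating enzyme and with it the activity of cullin-RING ubiquitin ligases. The series title concerns this block and apoptosis of the cells in hypoxia.

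BH3-only proteins report damage to mitochondria. They occupy the groove of the anti-apoptotic guardians BCL2, BCL-XL, BCL-W and MCL1, and some of them (the products of Bcl2l11, Bid and Bbc3) can also switch on the pore-forming effectors BAX and BAK directly. Each gene is tied to a kind of stress: Bbc3 (PUMA) and Pmaip1 (NOXA) to p53 and to the unfolded protein and integrated stress responses, Bcl2l11 (BIM) and Bmf to loss of growth factors or attachment, Bad to growth factor kinases, Bid to caspase 8 and death receptors, and Hrk mainly to neurons. Much of their control lies in protein cleavage, phosphorylation and ubiquitination, which RNA does not measure. NOXA and BIM proteins are themselves substrates of cullin-RING ligases.

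Promoter letters are shown for Bbc3, the member that rose most in hypoxia, and for Bcl2l11, which did not pass a test. Windows of both hold a FOXO core. They were picked after the values were seen, and a part of FOXO factors in these values was not tested. Sequences are from RefSeq with build GRCm38.p6, each the 250 bases before an annotated start on the plus strand, 5′ to 3′. Capitals mark a match on either strand to the FOXO core, spelled TGTTTAC. In the second window they mark the HIF core in the spelling ACGTG only. The spelling GCGTG was not searched and is not marked. It occurs in both Bbc3 windows and, as its reverse complement CACGC, in the Bcl2l11 window. A match on the minus strand appears as its reverse complement, as in the Bcl2l11 window.
Bbc3 window at chr7:16310011-16310260: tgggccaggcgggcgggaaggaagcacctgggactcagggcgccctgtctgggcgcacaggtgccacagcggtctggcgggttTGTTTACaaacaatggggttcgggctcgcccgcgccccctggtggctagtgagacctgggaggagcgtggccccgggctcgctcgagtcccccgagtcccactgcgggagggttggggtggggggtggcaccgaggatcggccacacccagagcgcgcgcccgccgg
Bbc3 window at chr7:16310181-16310430: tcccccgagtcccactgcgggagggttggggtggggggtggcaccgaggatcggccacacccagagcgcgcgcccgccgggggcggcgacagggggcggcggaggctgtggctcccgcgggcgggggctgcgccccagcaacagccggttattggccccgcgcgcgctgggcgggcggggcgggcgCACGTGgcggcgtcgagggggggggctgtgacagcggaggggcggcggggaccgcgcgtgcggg
Bcl2l11 window at chr2:128125788-128126037: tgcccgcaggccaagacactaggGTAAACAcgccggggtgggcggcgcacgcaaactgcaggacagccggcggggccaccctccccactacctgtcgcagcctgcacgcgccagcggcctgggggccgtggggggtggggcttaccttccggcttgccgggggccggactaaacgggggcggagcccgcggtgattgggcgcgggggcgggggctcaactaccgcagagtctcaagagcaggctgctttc
The FOXO core of Bbc3 lies at bases -167 to -161 from its start, and that of Bcl2l11 at -227 to -221. In the second Bbc3 window 2 overlapping matches of the HIF core, at -64 to -60 and -63 to -59, form the palindrome CACGTG. The first and second windows overlap, since the starts are close together. There were 12 windows of 6 members (Bad, Bbc3, Bcl2l11, Bid, Bmf and Hrk). Of these, 2 held the FOXO core, against 3.17% of all 32851 windows of the same length. The HIF core as spelled ACGTG was in 1, against 16.6% of all. The CRE core TGACG, which the CREB and ATF factors can read, was in 3 of the 12 windows, 1 each of Bbc3, Bmf and Hrk, against 17.8% of all. The composite C/EBP-ATF motif TGATGNAA was in 1, of Hrk (3.45% of all), and the AP-1 motif TGANTCA in 0 (6.75%). Both strands were searched. A match describes letters and not a bound site, and which start GC-2 cells use is not known from a value per gene. Windows of Bik and Pmaip1 are not shown.

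Values are in FPKM, fragments scaled to transcript length and to the mapped total of the library, so levels can be set side by side between genes. Depth per library is unknown, as FPKM keeps no counts. Library totals ran from 530452 to 557779 FPKM in 11 libraries and reached 633597 in DMSO hypoxia replicate 1. That library stood apart: its mean Spearman correlation across genes with its group was 0.926, against 0.977 to 0.980 for the libraries of the 3 other groups, and its deviation from its group fell with transcript length (Spearman rho = -0.278 across genes). It is kept in the results, and list counts that differ without it follow in parentheses. The defining markers of spermatogonia were mostly absent: of 9 fixed markers 5 were in the table and 2 passed the filter (Uchl1 and Gfra1), while Kit did not exceed 0.04 FPKM and Sohlh1 0.05 FPKM. Of 8 markers of fibroblasts and peritubular cells 6 passed, and their summed level, mostly Col1a1 and Col1a2, was 1110 to 1430 FPKM over all libraries. With MLN4924, 2 of these 6 were higher and 3 lower at each oxygen level, at an adjusted p under 0.05 in limma. Of all tested genes 20.0% passed that threshold in normoxia and 25.5% in hypoxia. Acta2 ranged from 24.4 to 423 FPKM and Pdgfra from 0.62 to 11.9. Sertoli markers (6 of 7 in the table, 4 tested) summed to 15.2 to 18.0 FPKM in DMSO normoxia, 21.8 to 24.9 in DMSO hypoxia, 8.56 to 12.9 in MLN4924 normoxia and 11.1 to 15.4 in MLN4924 hypoxia. Leydig markers (4 of 6 in the table, 1 tested) summed to 11.3 to 12.1 FPKM in DMSO normoxia and 2.84 to 6.08 in DMSO hypoxia. With MLN4924 they summed to 1.61 to 3.83 in normoxia and 3.29 to 6.63 in hypoxia. Markers of macrophages and leukocytes (4 of 6 in the table, 2 tested) summed to 9.28 to 14.5 FPKM over all libraries. Markers of spermatocytes and spermatids were near 0, with Sycp3 the highest at no more than 0.35 FPKM. The part of these levels in the results was not tested.

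Levels of the BH3-only transcripts were low, apart from Bad. Of the 7 members found, 6 passed the filter for testing (at least 1 FPKM in at least 3 libraries) and Hrk did not. In DMSO normoxia Bad averaged 26.3 ± 3.56 FPKM (SD, n = 3), which is above 76.5% of the 12311 tested genes, and Bid averaged 8.62 ± 0.945, near the median gene of 9.37 FPKM. The other members lay below: Bcl2l11 at 2.81 ± 0.255, Bmf at 2.04 ± 0.136, Pmaip1 at 2.03 ± 0.268 and Bbc3 at 1.73 ± 0.443 FPKM. The ranges of Bmf, Pmaip1 and Bbc3 overlapped each other and lay under that of Bcl2l11. In MLN4924 hypoxia the order was Bad at 15.7 ± 0.319, Bbc3 at 5.36 ± 0.844, Pmaip1 at 4.59 ± 0.168, Bcl2l11 at 3.03 ± 0.238, Bid at 2.87 ± 1.06 and Bmf at 0.463 ± 0.0681 FPKM. There the ranges of Bbc3 and Pmaip1 overlapped, as did those of Bcl2l11 and Bid. Hrk was listed at 0 in 10 of 12 libraries and at 0.01 and 0.02 FPKM in the remaining pair, both MLN4924 hypoxia.

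**Figure D1:**
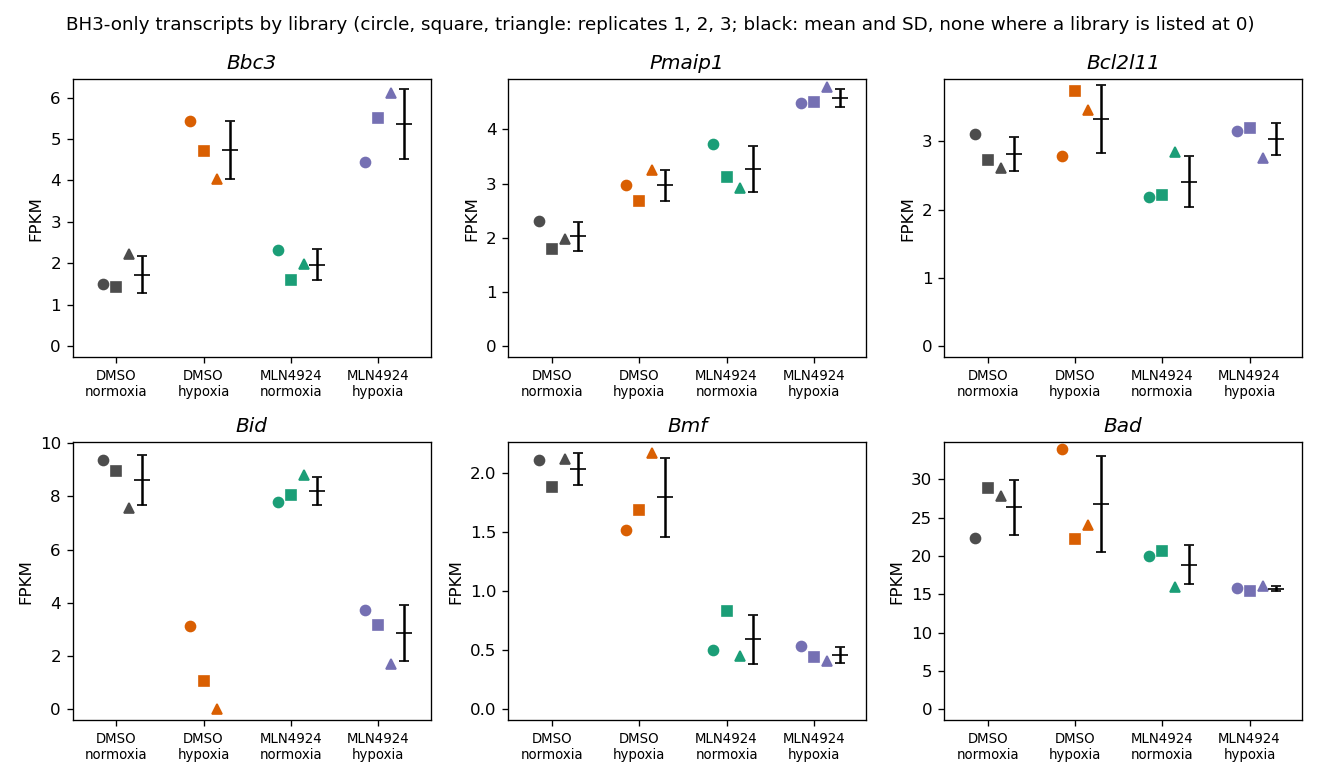
FPKM of the 6 tested members (vertical axes, each with its own scale) in the 12 libraries, by group; symbols mark replicates 1 to 3 and black bars the mean and SD of 3 libraries. Bbc3 sits at 4.04 or above in all hypoxia libraries and at 2.33 or below in all normoxia libraries, Bmf at 0.83 or below in all MLN4924 libraries, and Bid in DMSO hypoxia spreads from 0 to 3.13.

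Fold changes below are of FPKM + 1, which understates changes at such low levels, and each log2 fold change is given with its standard error (SE) from limma. "Rose" and "fell" are used for adjusted p under 0.05, over all tested genes. In bulk RNA, fewer cells carrying a transcript and less transcript per cell cannot be told apart.

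Bbc3, which encodes PUMA and binds every anti-apoptotic guardian, rose in hypoxia with and without the inhibitor. It read 1.51, 1.44 and 2.24 FPKM in DMSO normoxia (replicates 1 to 3) and 5.44, 4.70 and 4.04 in DMSO hypoxia. With MLN4924 it read 2.33, 1.59 and 1.98 in normoxia and 4.45, 5.50 and 6.12 in hypoxia. Every hypoxia library was above every normoxia library, and the DMSO and MLN4924 libraries overlapped at each oxygen level. The hypoxia effect was a log2 fold change of 1.07 ± 0.16 in DMSO (adjusted p = 6.01e-04) and 1.10 ± 0.16 in MLN4924 (adjusted p = 6.39e-04). As a ratio of mean FPKM the rise was 2.73-fold and 2.72-fold. MLN4924 itself gave 0.12 ± 0.16 in normoxia (95% confidence interval -0.23 to 0.48, adjusted p = 0.655) and 0.15 ± 0.16 in hypoxia (-0.20 to 0.50, adjusted p = 0.527). A change by MLN4924 within these intervals could not be told from none.

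Pmaip1 encodes NOXA, the selective partner of MCL1 that hastens its degradation. It was the member that rose both with hypoxia and with MLN4924. It read 2.32, 1.79 and 1.99 FPKM in DMSO normoxia and 2.97, 2.69 and 3.25 in DMSO hypoxia. It read 3.74, 3.13 and 2.93 in MLN4924 normoxia and 4.48, 4.50 and 4.78 in MLN4924 hypoxia. The untreated libraries were the lowest and the doubly treated ones the highest, with no overlap with any other group, while the groups with 1 treatment overlapped each other. MLN4924 raised it by a log2 fold change of 0.49 ± 0.11 in normoxia (adjusted p = 0.00938) and 0.49 ± 0.11 in hypoxia (adjusted p = 0.00749). Hypoxia raised it by 0.39 ± 0.11 in DMSO (adjusted p = 0.0190) and 0.39 ± 0.11 in MLN4924 (adjusted p = 0.0205). Both together gave 0.88 ± 0.11 (adjusted p = 1.27e-04), from 2.03 ± 0.268 to 4.59 ± 0.168 FPKM. The hypoxia calls were near the threshold. In DMSO the call ended without DMSO hypoxia replicate 3 (adjusted p = 0.0580), DMSO normoxia replicate 2 (0.0741) or replicate 3 (0.0558), and in a fit of those 2 groups alone (0.0853). In MLN4924 it ended without MLN4924 hypoxia replicate 2 (0.0515) or 3 (0.0689), or MLN4924 normoxia replicate 2 (0.0672) or 3 (0.0786), and with no filter on low values (0.0527).

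Bcl2l11 encodes BIM, which binds all guardians and can activate BAX. No difference between groups passed the threshold. Its values were 3.10, 2.73 and 2.61 FPKM in DMSO normoxia and 2.78, 3.74 and 3.46 in DMSO hypoxia. They were 2.18, 2.21 and 2.84 in MLN4924 normoxia and 3.15, 3.19 and 2.76 in MLN4924 hypoxia. Every group overlapped each of the others. The largest difference in size was hypoxia against normoxia in MLN4924, 0.25 ± 0.12 (95% confidence interval -0.02 to 0.51, adjusted p = 0.161). Over the 5 comparisons between 2 groups the intervals reached from -0.43 (MLN4924 in normoxia) to 0.51, and a change within them could not be told from none.

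Bid encodes a protein that caspase 8 cuts into an active form, linking death receptors to mitochondria. It fell in hypoxia, with a wide spread. It read 9.35, 8.95 and 7.55 FPKM in DMSO normoxia and 3.13, 1.06 and 0 in DMSO hypoxia. It read 7.79, 8.04 and 8.80 in MLN4924 normoxia and 3.75, 3.17 and 1.69 in MLN4924 hypoxia. All hypoxia libraries were below all normoxia libraries, whereas the 2 hypoxia groups overlapped. The log2 fold change with hypoxia was -2.23 ± 0.41 in DMSO (adjusted p = 0.00220; -3.59 and still past the threshold with a pseudocount of 0.1 FPKM) and -1.29 ± 0.41 in MLN4924 (adjusted p = 0.0384). An exact 0 in such a table can be a failed estimate. Polr2m, of RNA polymerase II, was at 0 in DMSO normoxia replicate 1 and DMSO hypoxia replicate 3, against a median of 129 FPKM. Mki67 and Bag6 were at 0 in DMSO hypoxia replicate 1, against 71.6 and 48.5. The 0 of Bid was in DMSO hypoxia replicate 3. Genes at 0 while the other replicates of the group read at least 5 FPKM numbered 57 in DMSO hypoxia replicate 1. There were 6 in replicate 3, and from 4 to 11 in the libraries other than replicate 1. No mean is therefore given for Bid in DMSO hypoxia.

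The fall of Bid in DMSO kept its call whichever of the 12 libraries was dropped, at log2 fold changes from -2.74 (without DMSO hypoxia replicate 1) to -1.72 (without DMSO hypoxia replicate 3). The fall in MLN4924 did not: it ended without any single library of MLN4924 hypoxia, MLN4924 normoxia or DMSO normoxia (9 libraries, adjusted p up to 0.133), and it ended with pseudocounts of 0.1 (0.273) and 0.5 FPKM (0.0843), with no filter (0.0809) and with every library scaled to the same total (0.0710). MLN4924 against DMSO in hypoxia gave 0.88 ± 0.41 (adjusted p = 0.143), 1.39 (adjusted p = 0.00625) without DMSO hypoxia replicate 1, and 0.37 (adjusted p = 0.392) without replicate 3. It was 1.97 and did not pass with a pseudocount of 0.1, and 1.55 and past the threshold with libraries weighted by their scatter (adjusted p = 0.00217). In the annotation, 628 of the 3550 exonic bases of Bid (17.7%) also lie in exons of Bcl2l13 on the opposite strand. Whether counting used strand is not given in the sources used here, so reads from that stretch cannot be assigned with certainty. Bcl2l13 read 11.6, 52.0 and 50.8 FPKM in DMSO hypoxia and between 32.9 and 51.0 in the other groups. It was low in the library of that group in which Bid was highest, and its part in the Bid values was not tested. Casp8, the enzyme that activates Bid, had a log2 fold change of 0.10 ± 0.17 with hypoxia in DMSO (adjusted p = 0.657).

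Bmf encodes a protein held on actin-based myosin motors until cells detach. It fell with MLN4924 at both oxygen levels. It read 2.11, 1.88 and 2.12 FPKM in DMSO normoxia and 1.52, 1.69 and 2.17 in DMSO hypoxia. It read 0.50, 0.83 and 0.45 in MLN4924 normoxia and 0.54, 0.44 and 0.41 in MLN4924 hypoxia. Every MLN4924 library was below every DMSO library and below 1 FPKM, and the oxygen groups overlapped within each treatment. The log2 fold change was -0.94 ± 0.13 in normoxia (adjusted p = 6.56e-04) and -0.93 ± 0.13 in hypoxia (adjusted p = 6.26e-04). With a pseudocount of 0.1 FPKM these became -1.66 and -1.74, since 1 FPKM is large beside Bmf. As a ratio of mean FPKM, Bmf with MLN4924 stood at 0.291 of its level in DMSO in normoxia and at 0.258 in hypoxia. Hypoxia gave -0.13 ± 0.13 in DMSO (95% confidence interval -0.42 to 0.16, adjusted p = 0.482) and -0.12 ± 0.13 in MLN4924 (adjusted p = 0.562).

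Bad encodes a sensitizer that binds BCL2 and BCL-XL unless growth factor kinases phosphorylate it. It was lower with MLN4924. It read 22.3, 28.9 and 27.9 FPKM in DMSO normoxia and 33.9, 22.2 and 24.1 in DMSO hypoxia. It read 19.9, 20.7 and 16.0 in MLN4924 normoxia and 15.8, 15.4 and 16.0 in MLN4924 hypoxia. All MLN4924 libraries were below all DMSO libraries. Bad fell with MLN4924 in hypoxia (log2 fold change -0.70 ± 0.16, adjusted p = 0.00824). Without DMSO hypoxia replicate 1, in which Bad was highest, the fall was -0.53 and kept its call. In normoxia the difference of -0.46 ± 0.16 did not pass (adjusted p = 0.0634), but did without DMSO hypoxia replicate 1 (adjusted p = 0.00992), DMSO hypoxia replicate 2 (0.0498) or DMSO normoxia replicate 1 (0.0491). It also passed with weighted libraries (0.00577), with every library scaled to the same total (0.0267) and in a fit of the 2 groups alone (0.0346). Hypoxia gave 0.01 ± 0.16 in DMSO (95% confidence interval -0.34 to 0.35), and -0.24 ± 0.16 in MLN4924 (adjusted p = 0.299). Exons of Bad share 524 of 2558 bases (20.5%) with Gpr137 on the opposite strand, which read 1.32 to 5.19 FPKM.

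**Figure D2:**
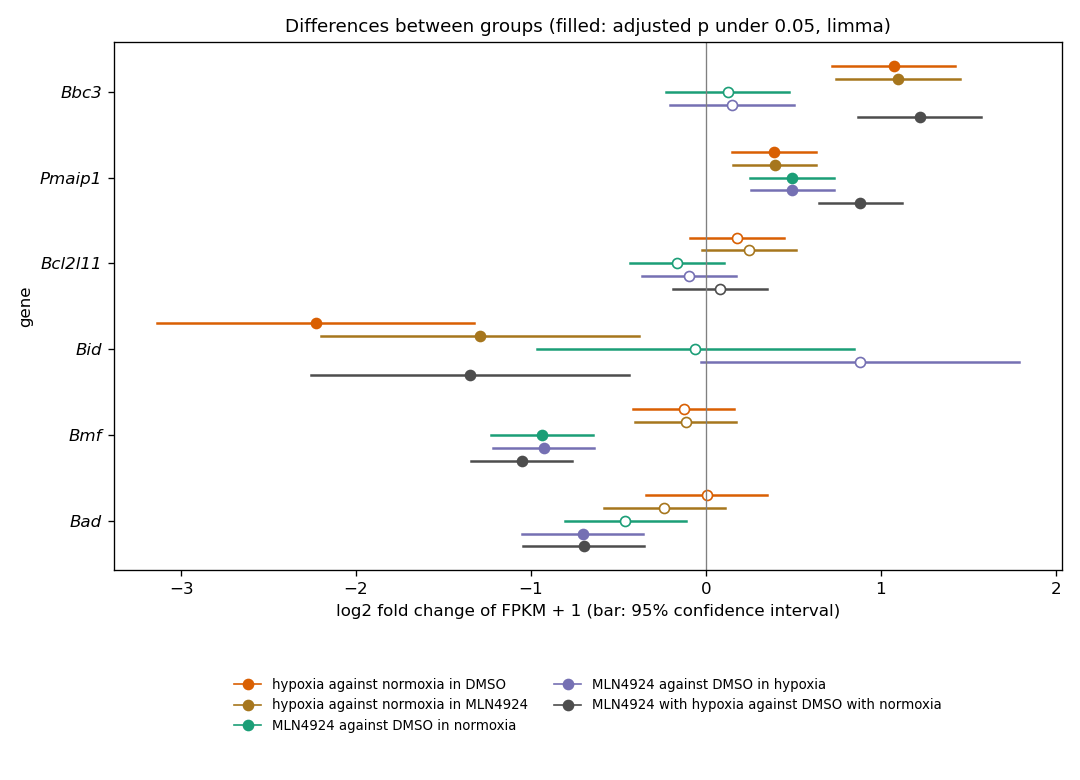
Log2 fold change of FPKM + 1 (horizontal axis) with its 95% confidence interval for 6 genes in 5 comparisons (colours); filled points passed an adjusted p of 0.05 in limma. Bbc3 is apart from 0 in the comparisons that change oxygen, Bmf in those that change MLN4924, and Pmaip1 in all 5; Bid has the widest intervals.

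Counted together, 2 of the 6 tested members rose and 1 fell with hypoxia in DMSO, where 33.2% of all tested genes passed (13.8% higher and 19.4% lower). The members' median log2 fold change was 0.09, beside -0.08 over all tested genes. In MLN4924, 2 rose and 1 fell with hypoxia (28.2% of all genes passed, 11.7% higher and 16.5% lower), with a median of 0.07 beside -0.05. The count of 3 dropped to 1 without any one of MLN4924 hypoxia replicates 2 and 3 and MLN4924 normoxia replicates 2 and 3. MLN4924 gave 1 rise and 1 fall in normoxia (20.0% of all genes passed, 9.33% higher and 10.7% lower), or 1 and 2 without DMSO hypoxia replicate 1, with a median of -0.11 beside -0.03. In hypoxia it gave 1 rise and 2 falls (25.5% of all genes passed, 12.2% higher and 13.3% lower), or 2 and 2 without that library, with a median of 0.03 beside -0.01. Without DMSO hypoxia replicate 1 more of all genes passed too. They were 4212 of 12233 with MLN4924 in normoxia and 3982 of 12233 in hypoxia. Shares of 2 to 3 in 6 are too coarse to set apart from these backgrounds.

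With both treatments against neither, 2 members rose and 3 fell, where 35.8% of all tested genes were called (14.6% higher and 21.2% lower). The members' median was -0.31, beside -0.07 over all genes. Bbc3 rose by a log2 fold change of 1.22 ± 0.16 (adjusted p = 1.93e-04) and Pmaip1 as given above. Bmf fell (-1.05 ± 0.13, adjusted p = 1.40e-04), as did Bad (-0.70 ± 0.16, adjusted p = 0.00558) and Bid (-1.35 ± 0.41, adjusted p = 0.0257). The call of Bid ended without MLN4924 hypoxia replicate 2 (0.0520) or 3 (0.0960) or DMSO normoxia replicate 1 (0.0726) or 2 (0.0688), with pseudocounts of 0.1 (0.227) and 0.5 FPKM (0.0619), and with no filter (0.0549). Bcl2l11 gave 0.08 ± 0.12 (adjusted p = 0.649). This comparison shares its libraries with the 4 above and is no separate evidence for the same genes.

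The interaction asks whether the hypoxia effect with MLN4924 differs from that with DMSO, and is the comparison nearest to the series title. None of the 6 tested members passed in limma (0 at adjusted p under 0.05 and 0 at an unadjusted p under 0.05), where 1.88% of all tested genes were called. The estimates were 0.02 for Bbc3 (95% confidence interval -0.47 to 0.52), 0.00 for Pmaip1 (-0.33 to 0.34), 0.01 for Bmf (-0.40 to 0.42) and 0.07 for Bcl2l11 (-0.31 to 0.45). For Bad the estimate was -0.24 (-0.73 to 0.25). Bid had the largest in size, 0.94 (-0.34 to 2.23, adjusted p = 0.502), and it passed when libraries were weighted by their scatter (1.60, adjusted p = 0.0343); it was 1.45 without DMSO hypoxia replicate 1 (adjusted p = 0.0725) 0.43 without replicate 3 (adjusted p = 0.579), and 2.04, also not past the threshold, with a pseudocount of 0.1. A departure from additive log2 effects within each member's own interval could not be told from none.

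Summed FPKM over the 7 members was 43.6 ± 2.60 in DMSO normoxia, 40.9 ± 7.64 in DMSO hypoxia, 35.3 ± 2.04 in MLN4924 normoxia and 32.1 ± 0.237 in MLN4924 hypoxia. Bad made up 47.8% to 68.2% of the sum in every library. Without Bad the sums were 17.2 ± 1.01, 14.2 ± 1.49, 16.4 ± 0.605 and 16.3 ± 0.528 FPKM in the same order, with DMSO hypoxia the lowest and only its highest library (15.8) reaching the lowest of the MLN4924 groups. The lowest of these sums, 12.9 FPKM in DMSO hypoxia replicate 3, includes the listed 0 of Bid. These sums are descriptions, and no test was made of them.

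**Figure D3:**
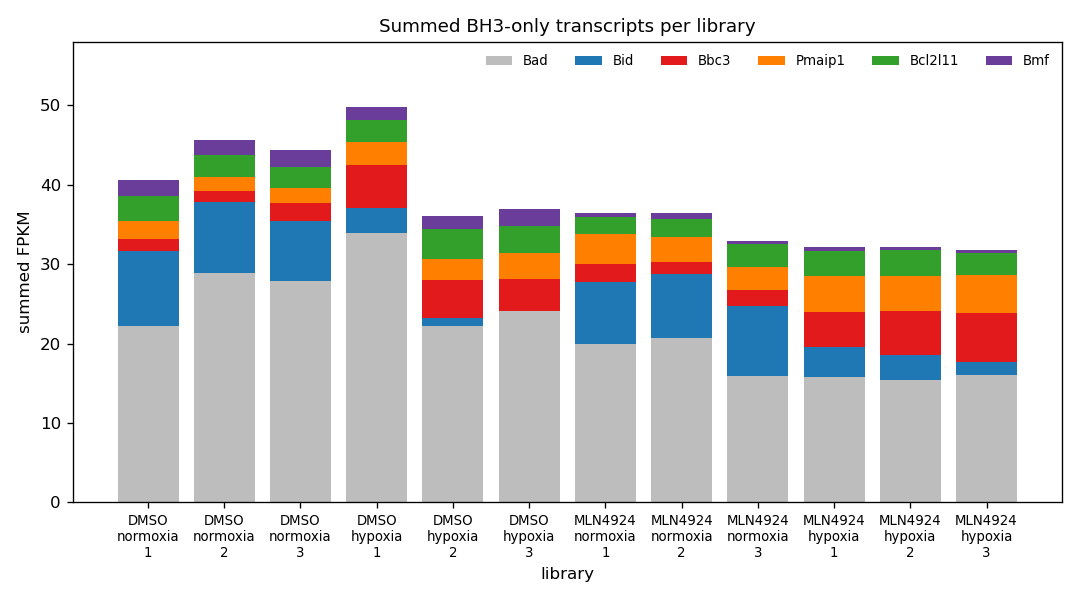
Stacked FPKM of 6 members (vertical axis) in each of the 12 libraries; Hrk, at most 0.02 FPKM, is not drawn. Bad is the largest block throughout, from 15.4 to 33.9 FPKM, while the Bid block shrinks and the Bbc3 block grows in hypoxia.

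The partners of the BH3-only proteins were read from lists chosen for this purpose, and are given as counts of genes past the threshold in each direction. Of all tested genes, 33.2% passed with hypoxia in DMSO and 28.2% with hypoxia in MLN4924. With MLN4924 20.0% passed in normoxia and 25.5% in hypoxia, with both treatments 35.8%, and in the interaction 1.88%. Without DMSO hypoxia replicate 1 more genes passed: of 12233 tested, 4760 with hypoxia in DMSO and 5231 with hypoxia in MLN4924. With MLN4924 4212 then passed in normoxia and 3982 in hypoxia, with both treatments 6072, and in the interaction 678. List counts without that library belong beside these numbers. No test set the counts of the lists against either background. Of the anti-apoptotic guardians 4 were in the table (Bcl2, Bcl2l1, Bcl2l2 and Mcl1) and 4 are not analysed here. With hypoxia in DMSO 0 of 4 passed in limma (0 at an unadjusted p under 0.05), and with MLN4924 in normoxia 0 of 4 (1 at an unadjusted p under 0.05). Without DMSO hypoxia replicate 1, 1 was lower in the first and 1 higher in the second. Mcl1, the guardian that NOXA binds, was the 1 that fell in each of the 3 comparisons that involve MLN4924 hypoxia. It read 58.3, 57.8 and 57.6 FPKM in DMSO normoxia and 62.3, 47.5 and 48.8 in DMSO hypoxia. It read 62.2, 61.6 and 63.3 in MLN4924 normoxia and 40.8, 41.7 and 41.7 in MLN4924 hypoxia. The doubly treated libraries were the lowest with no overlap. Pmaip1 was highest in that group, and a link between the 2 transcripts was not tested. Its log2 fold change was -0.58 ± 0.09 for hypoxia in MLN4924 (adjusted p = 7.28e-04) and -0.33 ± 0.09 for MLN4924 in hypoxia (adjusted p = 0.0167). The second value became -0.21 without DMSO hypoxia replicate 1, and its call ended without MLN4924 hypoxia replicate 1 (0.0533) and in a fit of the 2 groups alone (0.119). The interaction of Mcl1 was -0.44 ± 0.12 (adjusted p = 0.112); without DMSO hypoxia replicate 1, 1 guardian passed in the interaction. Bcl2l1, which encodes BCL-XL, varied from 3.96 to 10.3 FPKM and passed in no comparison.

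Of the 3 effector genes, hypoxia raised 0 and lowered 1 in DMSO, and raised 1 and lowered 1 in MLN4924. With MLN4924 0 passed in limma in normoxia (0 at an unadjusted p under 0.05), and 1 rose in hypoxia. Of all tested genes 33.2% passed with hypoxia in DMSO and 28.2% in MLN4924, and with MLN4924 20.0% in normoxia and 25.5% in hypoxia. Bak1 averaged 55.6 ± 4.33 FPKM in DMSO normoxia and 40.5 ± 5.03 in DMSO hypoxia, a fall of -0.45 ± 0.10 in log2 fold change (adjusted p = 0.00475). Its fall in MLN4924 (-0.36 ± 0.10, adjusted p = 0.0183) ended without MLN4924 hypoxia replicate 1 (0.0649) or 2 (0.0600) or MLN4924 normoxia replicate 3 (0.0729), and with every library scaled to the same total (0.0662). Bax, at 64.2 to 105 FPKM, passed in no comparison. Bok, an effector that acts apart from the guardians, rose with both treatments from 5.38 ± 0.125 to 7.77 ± 0.464 (0.46 ± 0.10, adjusted p = 0.00555). Its rises with MLN4924 in hypoxia (0.32 ± 0.10, adjusted p = 0.0442) and with hypoxia in MLN4924 (0.32 ± 0.10, adjusted p = 0.0412) ended in 11 and 10 of 12 single omissions, at adjusted p up to 0.129 and 0.122.

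In the apoptosome and caspase list, which acts after the mitochondrial step, 9 genes were tested. Hypoxia raised 1 and lowered 3 in DMSO (1 and 5 without DMSO hypoxia replicate 1), and raised 2 and lowered 2 in MLN4924 (2 and 3 without it). MLN4924 raised 1 and lowered 2 in normoxia (2 and 2 without that library), and raised 2 and lowered 1 in hypoxia (3 and 1 without it). The shares of all tested genes were 33.2% for hypoxia in DMSO and 28.2% in MLN4924. For MLN4924 they were 20.0% in normoxia and 25.5% in hypoxia. Casp6, an executioner caspase, was at 24.7 ± 0.869 FPKM in DMSO normoxia and 43.3 ± 6.48 in DMSO hypoxia. It rose with hypoxia in DMSO (log2 fold change 0.77 ± 0.10, adjusted p = 1.94e-04) and in MLN4924 (0.50 ± 0.10, adjusted p = 0.00316), and fell with MLN4924 in hypoxia (-0.40 ± 0.10, adjusted p = 0.0122). That fall was -0.28 without DMSO hypoxia replicate 1, and its call ended in a fit of the 2 groups alone (0.0758). Htra2, a mitochondrial protease that antagonises XIAP when released, rose with MLN4924 in normoxia, where means were 28.9 ± 0.765 in DMSO and 42.2 ± 1.16 in MLN4924 (0.53 ± 0.10, adjusted p = 0.00318) and in hypoxia (0.56 ± 0.10, adjusted p = 0.00193). Casp9, the initiator on the apoptosome, fell with MLN4924 in normoxia (-0.45 ± 0.10, adjusted p = 0.0103) and rose with hypoxia in MLN4924 (0.43 ± 0.10, adjusted p = 0.00889). Diablo, another XIAP antagonist, fell with both treatments (-0.51 ± 0.08, adjusted p = 5.44e-04).

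Other genes with a BH3 motif gave 2 up and 0 down of 6 tested with hypoxia in DMSO (2 and 1 without DMSO hypoxia replicate 1), and 3 up and 0 down in MLN4924. MLN4924 gave 0 up and 2 down at both oxygen levels (0 and 3 in normoxia and 1 and 2 in hypoxia without that library). Over all tested genes 33.2% passed with hypoxia in DMSO and 28.2% in MLN4924, and with MLN4924 20.0% in normoxia and 25.5% in hypoxia. The called genes were Bnip3 and Bnip3l, HIF-induced mitophagy receptors, and Becn1 as the third for hypoxia in MLN4924. The Becn1 value of 0.30 ± 0.09 (adjusted p = 0.0301) lost its call in 5 of 12 single omissions, at adjusted p up to 0.112, and with no filter (0.0505). Bnip3l read 35.5 FPKM in DMSO normoxia, 110 in DMSO hypoxia, 25.9 in MLN4924 normoxia and 81.5 in MLN4924 hypoxia as group means. It rose with hypoxia by 1.60 ± 0.08 in DMSO and 1.62 ± 0.08 in MLN4924, and fell with MLN4924 by 0.44 in normoxia and 0.43 in hypoxia. Bnip3, at 172 FPKM in DMSO normoxia, rose with hypoxia by 2.25 ± 0.14 in DMSO and 2.39 ± 0.14 in MLN4924. It fell more than Bnip3l with MLN4924, at log2 fold changes of -1.08 in normoxia (adjusted p = 5.18e-04) and -0.945 in hypoxia (adjusted p = 0.00104). The second value was -0.73 without DMSO hypoxia replicate 1.

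Among 12 tested transcription factors known to act on BH3-only genes, hypoxia raised 6 and lowered 2 in DMSO (7 and 2 without DMSO hypoxia replicate 1), where 33.2% of all genes passed, and raised 6 and lowered 3 in MLN4924 (28.2% of all genes). Their median log2 fold changes were 0.67 and 0.16, beside -0.08 and -0.05 over all genes. With MLN4924 4 rose and 2 fell in normoxia (4 and 3 without that library), where 20.0% of all genes passed. MLN4924 in hypoxia gave 3 rises and 0 falls (4 and 1 without that library), where 25.5% of all genes passed. The medians were 0.21 and 0.02, beside -0.03 and -0.01 over all genes. Ddit3 (CHOP), which acts on Bbc3 and Bcl2l11 in endoplasmic reticulum stress, read 25.5 ± 0.525 FPKM in DMSO normoxia and 88.7 ± 13.5 in DMSO hypoxia. It was 31.1 ± 5.07 in MLN4924 normoxia and 113 ± 6.12 in MLN4924 hypoxia. Like Bbc3 it was higher in the hypoxia groups, and a part of Ddit3 in the Bbc3 values was not tested. Atf3, a stress factor that can act on Pmaip1, was 2.35 ± 0.418, 6.41 ± 0.575, 5.87 ± 0.674 and 13.2 ± 1.28 in the same order. It rose by 1.15 ± 0.12 with hypoxia in DMSO (adjusted p = 6.51e-05) and by 1.04 ± 0.12 with MLN4924 in normoxia (adjusted p = 2.16e-04). Pmaip1 also had this order of groups, apart from the groups with 1 treatment. A part of Atf3 in the Pmaip1 values was not tested. Atf4 rose by 0.96 ± 0.08 with hypoxia in DMSO. Its interaction was -0.62 ± 0.11 (adjusted p = 0.0213), a call that 8 of 12 single omissions ended, at adjusted p up to 0.0690. Jun, the AP-1 subunit, was the other factor with an interaction (-0.47 ± 0.08, adjusted p = 0.0151), which 1 omission (adjusted p = 0.0539) and scaling every library to the same total (-0.40, adjusted p = 0.103) ended. Jun averaged 20.1 ± 0.876 FPKM in DMSO normoxia and 34.2 ± 0.671 in DMSO hypoxia. With MLN4924 it averaged 31.7 ± 0.925 in normoxia and 38.6 ± 1.69 in hypoxia. Myc rose with MLN4924 by 1.45 ± 0.13 in normoxia and 1.18 ± 0.13 in hypoxia. E2f1, a cell-cycle factor, rose with hypoxia in MLN4924 (0.81 ± 0.11, adjusted p = 3.33e-04), from 20.5 ± 1.94 to 36.6 ± 2.67 FPKM. The difference was not particular to the inhibitor, as E2f1 averaged 22.6 ± 2.26 FPKM in DMSO normoxia and 40.4 ± 4.85 in DMSO hypoxia. Foxo3, named here for its motif in the windows above and after its values were seen, was 6.61 ± 0.396 FPKM in DMSO normoxia and 12.1 ± 1.72 in DMSO hypoxia. It rose with hypoxia by 0.77 ± 0.10 in DMSO (adjusted p = 2.10e-04) and 0.75 ± 0.10 in MLN4924 (adjusted p = 3.19e-04). Trp53, the classic activator of Bbc3 and Pmaip1, was named after its values were seen. It averaged 2084 ± 31.7 FPKM in DMSO normoxia and 1476 ± 114 in DMSO hypoxia, and fell with hypoxia by a log2 fold change of -0.50 ± 0.07 in DMSO (adjusted p = 3.73e-04) and -0.49 ± 0.07 in MLN4924 (adjusted p = 5.36e-04). GC-2 is known as a line that carries a mutant p53 beside the SV40 large T antigen, and reads of such a transgene cannot be told apart from those of Trp53 in these values.

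Genes for turnover and activation of BH3-only proteins gave 1 rise and 5 falls of 15 with hypoxia in DMSO (2 and 5 without DMSO hypoxia replicate 1), and 0 and 5 in MLN4924 (0 and 7 without it). MLN4924 gave 1 and 0 in normoxia (1 and 2 without that library), and 0 and 3 in hypoxia (0 and 4 without it). With both treatments 2 rose and 5 fell, where 35.8% of all genes passed (14.6% higher and 21.2% lower). Without that library 4 rose and 7 fell, where 6072 of 12233 genes passed. With hypoxia 33.2% of all genes passed in DMSO (13.8% higher and 19.4% lower) and 28.2% in MLN4924 (11.7% and 16.5%). With MLN4924 20.0% passed in normoxia (9.33% higher and 10.7% lower) and 25.5% in hypoxia (12.2% and 13.3%). Ube2f, the NEDD8-conjugating enzyme of the CUL5 ligase that marks NOXA for degradation, fell with hypoxia in MLN4924, at means of 21.2 ± 1.40 FPKM in normoxia and 12.6 ± 1.29 in hypoxia (log2 fold change -0.71 ± 0.12, adjusted p = 0.00153). Lower values in hypoxia were not particular to the inhibitor. Ube2f averaged 18.2 ± 2.31 FPKM in DMSO normoxia and 13.9 ± 1.97 in DMSO hypoxia, with no overlap. Dynll2, the dynein light chain that holds BMF, fell with both treatments (-0.80 ± 0.12, adjusted p = 6.14e-04), and Pim1, a kinase that phosphorylates BAD, rose with both (0.77 ± 0.20, adjusted p = 0.0107). These changes were not particular to the combination. With hypoxia in DMSO Dynll2 gave -0.45 (adjusted p = 0.0173) and Pim1 0.71 (adjusted p = 0.0187). Each of these calls ended in 2 of 12 single omissions, at adjusted p up to 0.0602 for Dynll2 and 0.0724 for Pim1. Dynll1, the dynein light chain that holds BIM, fell with hypoxia in MLN4924 (-0.40 ± 0.06, adjusted p = 0.00108).

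The genes whose log2 values followed each member most closely over the 12 libraries are given as a description; the libraries share their 4 groups, so any gene with the same response ranks high. For Bbc3 they were Btbd3 (Pearson r = 0.978), G0s2 (0.976) and Piga (0.975), and for Pmaip1 Dusp10 (0.974), Rpsa (0.973) and Snai2 (0.971). For Bmf they were Rbl1 (0.982), Emilin2 (0.977) and Creb3l1 (0.972). Bid was followed by Psma7 (0.973), Ndufa4 (0.965) and Rpn1 (0.964), Bad by Mrps34 (0.949), Ppp1r14c (0.948) and Cox14 (0.948), and Bcl2l11 by Impdh1 (0.944), Sbf2 (0.927) and Gpr162 (0.920). Snai2 averaged 13.6 FPKM in DMSO normoxia, 19.3 in DMSO hypoxia, 23.1 in MLN4924 normoxia and 30.4 in MLN4924 hypoxia, the order of Pmaip1. Between members, Bmf and Bad were the closest pair (r = 0.816), and Bmf and Pmaip1 the most opposed (r = -0.790), followed by Bbc3 and Bid (r = -0.759).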

How the data were processed

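RNA was measured by sequencing in 12 libraries of GC-2 cells. The deposited values are FPKM per gene, made by the authors and given to 2 decimals. The submitters' processing notes name fastp, STAR, RSEM 1.3.3 and build mm39; the annotation, strandedness and filters are not given in the sources used here. All 12 columns were used, and no pair was identical.

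The 12311 genes that reached 1 FPKM in 3 or more libraries were fitted as log2(FPKM + 1) in limma 3.58.1 (R 4.3.3), with 1 mean per group, a shared spread and an intensity trend. Two-sided p-values took the Benjamini-Hochberg adjustment over those genes, per comparison. FPKM are no counts, so no count model or counting interval was used. The fit was tested on simulated data with 200 changed genes. Permutation tests of 3 against 3 libraries cannot reach 0.05 and were not used.

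The members and lists were chosen with earlier results of these data known. All members are named, and from each list up to 3 genes per comparison with the largest change among those past the threshold at 5 FPKM or more. Transcript lengths and exon overlaps came from GENCODE M21 (GRCm38), used by symbol; promoter windows came from RefSeq on that build, which is not the files' build.

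Calls of Cycs, Cul1, Cul5, Rnf7 and Casp2 met that rule but ended with some library left out, and are given only in the counts. Some genes that met the rule are not reported here. Bax, Bcl2l1, Casp8, Foxo1, Foxo3 and Trp53 were named outside the rule, after their values were seen.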

Additional observations from a re-analysis of the deposited data

How the results depend on the processing

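Each comparison was refitted with other pseudocounts, filters, scalings and models of the spread, and with each library left out in turn. The number of members called stayed within 1.5 times in all but 2 comparisons. For hypoxia against normoxia in MLN4924 it was 1 with no filter on low values, and 1 to 3 with a library left out. For the interaction it was 1 with array weights and 0 with any library left out. Leaving out a library gave 2 to 3 for hypoxia in DMSO and for MLN4924 in normoxia, 3 to 4 for MLN4924 in hypoxia and 4 to 5 for both treatments against neither.

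Signs turned only for differences that passed nowhere. For Bad with hypoxia in DMSO the log2 fold change was -0.046 with every library scaled to the same total, -0.14 with array weights and -0.17 to 0.12 with a library left out. Interactions turned for Bbc3 (-0.011 with a pseudocount of 0.1; -0.10 to 0.13 with a library left out), Bcl2l11 (-0.013 with array weights; -0.026 to 0.16) and Bmf (-0.080 and -0.0146 with pseudocounts of 0.1 and 0.5, -0.0146 with median-of-ratios scaling, -0.11 with array weights; -0.061 to 0.11). They turned for Pmaip1 too (-0.045 and -0.017 with pseudocounts of 0.1 and 0.5, -0.039 with array weights; -0.063 to 0.082). The cause was not tested. Of the refits of single members, 717 kept direction and call, 29 lost a call, 9 gained one and 30 changed sign.

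Over all tested genes, calls moved by more than 1.5 times in these fits. Without DMSO hypoxia replicate 1 MLN4924 in normoxia gave 4212 (2467 with all libraries), hypoxia in MLN4924 5231 (3473) and the interaction 678 (232); the interaction gave 90 to 314 with any other library left out. Array weights gave 4524, 5339 and 843 there. Fits of 2 groups alone gave 2288 for hypoxia in DMSO (4093), 4095 for MLN4924 in normoxia and 1290 for MLN4924 in hypoxia (3137). The replicate block gave 132 for the interaction.

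Replicate numbers did not pair the libraries. Deviations of same-numbered libraries correlated at -0.0697 to 0.0993 over 18 pairs, and 4 of 12 libraries correlated best with their own number. With the replicate number as a block, the members called stayed at 3, 2, 3, 3, 5 and 0 in the 6 comparisons. Of the list genes named with values, Atf4 (interaction, adjusted p = 0.0600), Becn1 (hypoxia in MLN4924, 0.0530) and Bok (MLN4924 in hypoxia, 0.0729, and hypoxia in MLN4924, 0.0683) passed the threshold without the block and not with it. Unknown depth limits values below 1 FPKM, which concerns Bmf with MLN4924 and Hrk.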
